A study of Homo sapiens with 30 samples.

Results

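The mRNAs described here encode solute carriers (SLC), the transporters that move sugars, amino acids, ions, metals and vitamins across the plasma membrane and the membranes of organelles. A gene was taken as a member when its symbol consisted of SLC, a family number, the letter A and a member number, and when its mean over all 30 libraries was at least 1 CPM, where CPM is the count of a gene scaled to a common library total. The mitochondrial carriers of family SLC25 and the genes SLC7A11 and SLC30A1 were left out by the rule. Members were therefore selected on their mean level, which is given here with no test, and the family was proposed with earlier results of these data in view. The rule kept 163 of the 60664 genes in the table, out of 288 symbols of this form, of which 117 had counts under the minimum and 8 had no count. The members nearest above the minimum were SLC16A4 at 1.05 CPM and SLC16A5 at 1.07 CPM, and those nearest below it were SLC12A8 at 0.935 CPM and SLC2A11 at 0.93 CPM. All 163 members passed the low-count filter of every fit.

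RNA was sequenced from FT293 cells, a human embryonic kidney (HEK293) line that carries a tetracycline-inducible transgene. One line carries GFP-TIA1a of the normal sequence (WT) and the other a GFP-TIA1a mutant named for a muscle disease, Welander distal myopathy (WDM), so all groups hold a GFP-tagged TIA1a construct and none is muscle. Each line was studied in the cytosol fraction without treatment, after tetracycline (tet), and after tetracycline and 0.5 mM sodium arsenite for 60 min, and in the stress granule fraction after tetracycline, with and without arsenite. Each of these 10 groups held 3 libraries, 18 of cytosol and 12 of granules, and the labels do not say whether the 3 came from separate cultures, so p-values measure the spread between these samples, which may be technical. The granule fraction is a high-speed pellet of the lysate recovered with beads that bind GFP, and it was prepared from cells with and without arsenite. The titles call the other fraction cytosol, as is done here, while the protocol speaks of cellular extracts, so the sources leave unsettled which of these the granules are compared with.

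Most multi-spanning SLC proteins are made on ribosomes at the endoplasmic reticulum (ER), so their mRNAs are largely held at a membrane. Stress granules are assemblies of RNA and protein that form when translation initiation stops, as it does under arsenite, and TIA1 is an RNA-binding protein of these granules that prefers runs of U. Amino acid transporters such as SLC7A1 and SLC7A5 feed translation and growth signalling, SLC30 and SLC39 proteins move zinc in opposite directions, and SLC2A1 is the widespread glucose transporter GLUT1.

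Because TIA1 binds U-rich RNA, the 3′ UTRs of the members were searched for runs of at least 5 T on the transcript strand, the DNA spelling of U. Such a run was present in 133 of 161 members with an annotated 3′ UTR of at least 30 bases (82.6%), the same share as among 12511 protein-coding genes at a mean of at least 1 CPM (82.6%). It was present in 14 of 15 members whose granule enrichment rose with arsenite in both lines and in 9 of 10 whose enrichment fell in both. The 3′ UTRs of these sets were longer, with medians of 2947 and 2728 bases, against 1688 in all members and 1403 in the protein-coding genes. Runs per kb of 3′ UTR had medians of 3.12 in the members that rose, 4.49 in those that fell, 3.12 in all members and 3.42 in the protein-coding genes. The most T-rich 30-base window is shown for some of each kind, since the windows let the reader compare both directions of change. Positions are on GRCh38, sequences run 5′ to 3′ on the transcript strand, and capitals mark runs of at least 5 T. The first 5 belong to members whose enrichment rose and the last 3 to members whose enrichment fell.
SLC46A1, chr17:28395013-28395042, minus strand: cttccacctaTTTTTTTTTTTTctgtaatt
SLC7A5, chr16:87832676-87832705, minus strand: tcctttgtttacttatatatataTTTTTTT
SLC7A1, chr13:29512454-29512483, minus strand: TTTTTTcTTTTTTTTcttttctctagtttt
SLC2A1, chr1:42926777-42926806, minus strand: TTTTTTTattactgattttgttaTTTTTat
SLC10A3, chrX:154487396-154487425, minus strand: ggcttaTTTTTTTTactgaTTTTTTattct
SLC15A2, chr3:121942016-121942045, plus strand: TTTTTgatgttgttttcctgatttactttt
SLC10A7, chr4:146256056-146256085, minus strand: tactttgatttactgtgtgattcTTTTTTT
SLC9A9, chr3:143265357-143265386, minus strand: tgctatgtgcatcaattaTTTTTTTgcttt
Windows of both kinds held runs of at least 5 T, and all were chosen as the most T-rich of their 3′ UTRs. They held 17 to 24 T. The match describes the sequence only and says nothing about where TIA1 was bound.

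The libraries held 5906167 to 27419145 counts. Replicates of a group correlated at 0.981 to 0.997 (Pearson, across genes). The summed level of 6 HEK293 and epithelial markers was 460 to 677 CPM in cytosol and 412 to 499 CPM in granules, although NEFM was at most 0.483 CPM, and 3 leukocyte markers summed to at most 0.262 CPM. The table could not check the transgene labels, because TIA1 was listed at 0 or 1 count in every library, including those given tetracycline, while its close relative TIAL1 had 337 to 3712 counts. A value near 0 is therefore given only as listed in this table. SLC39A1, a zinc importer, was left out of the members at a mean of 0.0125 CPM, and 60.8% of its exon bases overlapped another gene on the same strand. Of the 125 SLC genes under the minimum, 8 had more than 25% of their exon bases in such an overlap. The same overlap makes the values of the members SLC35A1 (55.5%), SLC9A3 (41.1%) and SLC29A3 (11.6%) uncertain. The cause of the TIA1 value was not tested.

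The members were spread over a wide range of abundance. Their median mean level was 23.6 CPM, 24 of them reached 100 CPM and 51 lay under 10 CPM. The 8 most abundant held 29.8% of all member counts and were SLC38A1 (564 CPM), SLC16A1 (456 CPM), SLC38A2 (360 CPM), SLC1A5 (277 CPM), SLC7A1 (259 CPM), SLC39A14 (233 CPM), SLC12A2 (200 CPM) and SLC6A15 (180 CPM). SLC38A1, SLC38A2 and SLC1A5 carry glutamine and other neutral amino acids, SLC16A1 is the lactate transporter MCT1, and SLC12A2 is the sodium, potassium and chloride cotransporter. Per kb of transcript the order changed, with SLC16A1 at 121, SLC1A5 at 96.0, SLC3A2 at 81.3, SLC38A2 at 75.0 and SLC38A1 at 69.6 CPM per kb.

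The share of library counts that fell on members was lower after arsenite in cytosol and higher in granules. In WT cytosol it was 0.881 ± 0.0463% (SD, n = 3) after tetracycline and 0.780 ± 0.00617% after arsenite. In WT granules it was 0.717 ± 0.0193% and 0.888 ± 0.0215%. The WDM values were 0.913 ± 0.0677% and 0.831 ± 0.0139% in cytosol, and 0.795 ± 0.0138% and 0.909 ± 0.0115% in granules. No test was run on these shares, and the libraries with and without arsenite did not overlap within a fraction and line. The granule share was thus below the cytosol share without arsenite and above it with arsenite in both lines. CPM is a share of a library, so a change in other RNAs, in the number of granules recovered and in the RNA per granule cannot be told apart.

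**Figure D1:**
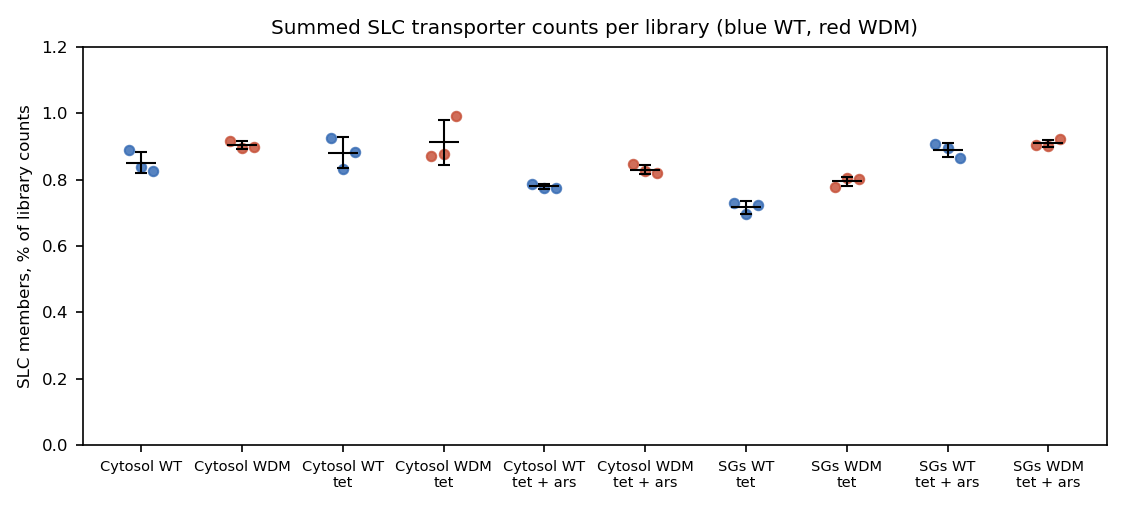
Share of all library counts, in percent, that fell on the 163 SLC members, by group; points are libraries and the bar is the mean with its SD (n = 3). Granule libraries of tetracycline-treated WT cells average 0.717%, and those of arsenite-treated WT cells 0.888%.

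Without arsenite, mRNAs of metal, nucleotide sugar and Golgi transporters were mostly lower in the granule fraction than in cytosol, and those of ion exchangers mostly higher. In WT cells 56 members were higher in granules and 66 lower, against 39.5% and 36.2% of the 18141 genes tested, with a median log2 fold change of -0.10 in members and 0.07 in all genes. In WDM cells 54 were higher and 64 lower, against 35.8% and 35.3% of all genes, with medians of -0.12 and 0.02. Of the members called, 50 were higher in both lines (89.3% of the WT list, 92.6% of the WDM list) and 60 were lower in both (90.9% and 93.8%). Of protein-coding genes at a mean of at least 1 CPM, 35.1% were higher and 43.4% lower in WT, and 32.4% and 42.1% in WDM granules. The members, at 34.4% and 40.5% in WT, lay near these shares, and the classes differed more than the whole.

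Among the 34 transporters of inorganic ions and acid, 20 were higher and 6 lower in WT granules (median log2 fold change 0.62), and 20 were higher and 5 lower in WDM granules (0.45). SLC24A3, a sodium, calcium and potassium exchanger, had the highest fold change in both lines. Its 3 libraries of WT cytosol held 3.32, 2.26 and 2.67 CPM and those of WT granules 20.5, 27.6 and 27.3 CPM. All granule libraries lay above all cytosol libraries, a log2 fold change of 3.16 ± 0.28 (SE, edgeR adjusted p = 3.06e-11). In WDM cells the difference was 2.79 ± 0.33 (SE, edgeR adjusted p = 1.4e-08). Genes named for a large fold change were taken only where libraries did not overlap, so that lack of overlap, here and below, is a description. Between the WT fractions after tetracycline, 76.7% of members and 75.5% of all genes did not overlap. SLC24A2, a close relative of SLC24A3, held 2.81, 1.13 and 1.46 CPM in WT cytosol and 14.7, 14.4 and 17.8 CPM in WT granules, and followed it in both lines at 3.08 ± 0.29 (SE, edgeR adjusted p = 1.42e-10) and 2.60 ± 0.32 (SE, edgeR adjusted p = 2.47e-08). SLC9A9, a sodium and proton exchanger of endosomes, held 2.44, 2.1 and 1.54 CPM in WT cytosol and 8.47, 10.2 and 11.6 CPM in WT granules, also without overlap. The log2 fold change of SLC9A9 was 2.30 ± 0.23 (SE, edgeR adjusted p = 6.48e-10) in WT and 2.19 ± 0.21 (SE, edgeR adjusted p = 3.77e-10) in WDM cells.

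Among the 23 transporters of zinc, iron, copper and magnesium, 3 were higher and 16 lower in WT granules (median -0.87), and 4 were higher and 15 lower in WDM granules (-0.60). The 14 members of the ER and Golgi list had 10 lower and 2 higher members in WT granules (-1.29) and 10 lower and 3 higher ones in WDM granules (-0.88). SLC39A6, a zinc importer, held 151, 157 and 169 CPM in WT cytosol and 42.5, 36.5 and 41.6 CPM in WT granules, -2.03 ± 0.16 (SE, edgeR adjusted p = 5.62e-12) on the log2 scale. SLC50A1, a sugar transporter placed in the Golgi list, was the lowest of all. It held 31.1, 32.5 and 32.6 CPM in WT cytosol and 4.91, 3.36 and 5.08 CPM in WT granules, and the groups did not overlap. Its log2 fold change was -2.88 ± 0.21 (SE, edgeR adjusted p = 1.02e-12) in WT and -2.53 ± 0.21 (SE, edgeR adjusted p = 1.5e-11) in WDM cells. All 4 nucleotide sugar transporters were lower in WDM granules and 3 of 4 in WT granules, with medians of -1.02 and -1.54. One of the 4 is SLC35A1, whose counts are uncertain.

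The 34 amino acid transporters were divided, with 11 higher and 8 lower in WT granules (median 0.04) and 10 and 8 in WDM granules (-0.03). SLC7A1, the cationic amino acid transporter CAT1, was among the higher, at 181, 79.9 and 85.1 CPM in WT cytosol and 256, 285 and 247 CPM in WT granules. One cytosol library was far above the other two, and no cytosol library reached the granule range. Its log2 fold change was 1.16 ± 0.22 (SE, edgeR adjusted p = 2.57e-05). SLC16A1, at 598, 644 and 713 CPM in WT cytosol and 236, 205 and 215 CPM in WT granules, was lower, at a log2 fold change of -1.62 ± 0.18 (SE, edgeR adjusted p = 2.77e-09).

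Other membrane and transport lists gave context for these values. Of 27 components of the ER targeting and insertion machinery, 1 was higher and 23 lower in WT granules (median -2.05). Of 38 mitochondrial carriers, which are made on free ribosomes, 9 were higher and 18 lower (-0.42), and of 26 ABC transporters 9 were higher and 4 lower (0.12). The long genes among the members were the ones mostly higher in granules. The 55 members with a gene span of 1428 to 32698 bases had 7 higher and 32 lower in WT granules (median -0.59), and the 54 with a span of 79530 to 583264 bases had 32 higher and 10 lower (0.61). In WDM cells the same sets had 5 and 32, and 33 and 9. Across members the Spearman correlation of gene span with the log2 fold change was 0.47 in WT and 0.54 in WDM cells, and across protein-coding genes it was 0.63 and 0.66. These are descriptions over genes of the same libraries. Nuclear-retained RNA moved with the fraction: 4 such RNAs summed to 202 to 860 CPM in cytosol libraries and to 2240 to 3570 CPM in granule libraries. Its part in the fraction differences was not tested.

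**Figure D2:**
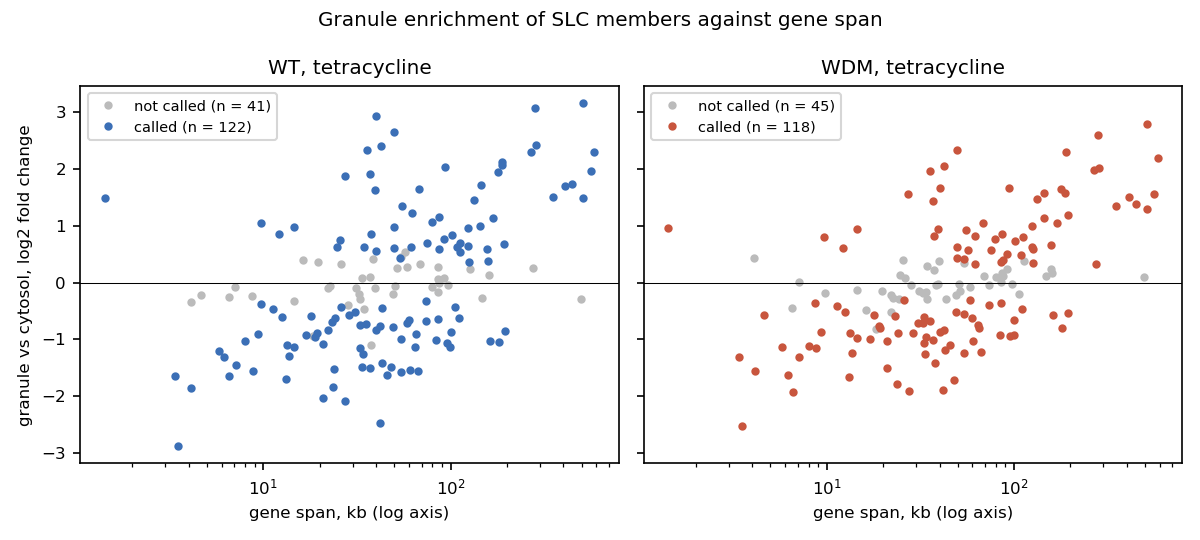
Log2 fold change between the granule and cytosol fractions of tetracycline-treated cells against gene span in kb (log axis), one point per SLC member. Members of longer span lie higher, with a Spearman correlation of 0.47 in WT and 0.54 in WDM cells.

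Under arsenite more members were higher in granules than in cytosol. In WT cells 67 were higher and 47 lower, against 35.0% and 35.5% of all genes, with a median log2 fold change of 0.17 in members and 0.05 in all genes. In WDM cells 66 were higher and 47 lower, against 36.3% and 35.7%, with medians of 0.17 and 0.06. Of protein-coding genes 34.8% were higher and 40.4% lower in WT and 34.2% and 40.9% in WDM cells. The members' own shares of higher mRNAs were 41.1% in WT and 40.5% in WDM cells, and no test of the members against that background was run. Without the third WT arsenite cytosol library, the number of members higher in WT granules was 54. Both lines shared 57 of the higher members (85.1% and 86.4% of their lists) and 38 of the lower (80.9% of each). The amino acid transporters had 17 higher and 8 lower in WT (median 0.40) and 18 and 9 in WDM cells (0.39), and the ion transporters 22 and 5 (0.62) and 22 and 4 (0.61). Of the metal transporters 7 were lower and 4 higher in WT cells (0.05), and 10 were lower and 3 higher in WDM cells (-0.24).

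**Figure D3:**
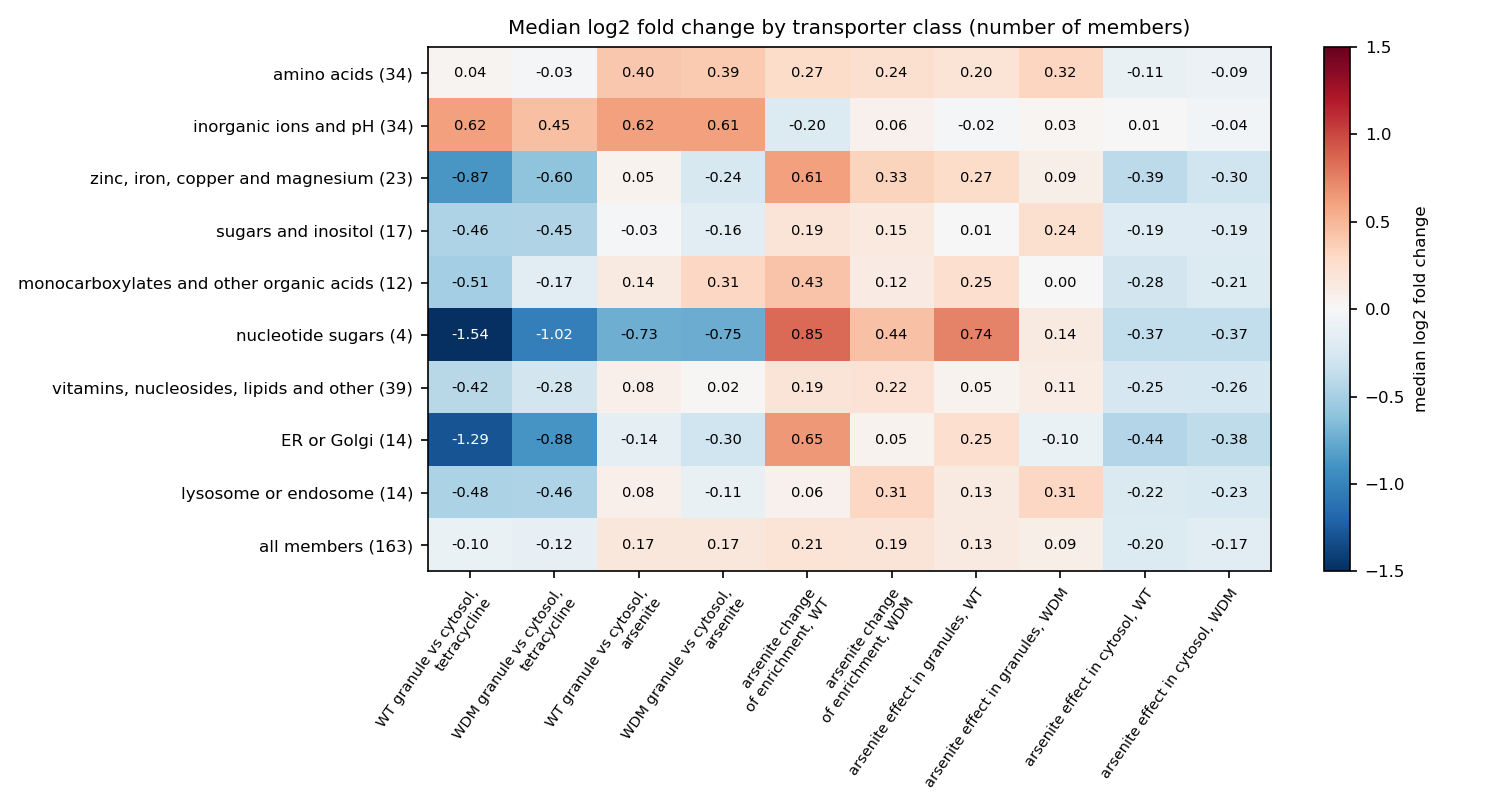
Median log2 fold change of each transporter class (rows, with the number of members) in each comparison (columns). Metal transporters go from -0.87 without arsenite to 0.05 with it in WT granules against cytosol.

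SLC7A1 had the largest granule enrichment of the members under arsenite in both lines. It held 131, 108 and 113 CPM in WT cytosol and 480, 499 and 519 CPM in WT granules, and 205, 172 and 163 CPM in WDM cytosol and 624, 697 and 754 CPM in WDM granules. In both lines every granule library was above every cytosol library. The log2 fold changes were 2.09 ± 0.22 (SE, edgeR adjusted p = 2.86e-09) and 1.88 ± 0.22 (SE, edgeR adjusted p = 1.79e-08). SLC24A3 was again higher, by 1.66 ± 0.26 (SE, edgeR adjusted p = 1.61e-06) in WT cells, and SLC50A1 was again lower, at a log2 fold change of -2.81 ± 0.20 (SE, edgeR adjusted p = 8.73e-13). SLC8A3, a sodium and calcium exchanger, held 1.52, 0.952 and 1.45 CPM in WT cytosol and 6.1, 5.21 and 4.86 CPM in WT granules. It followed SLC7A1 in both lines, at 2.04 ± 0.26 (SE, edgeR adjusted p = 6.97e-08) in WT and 1.78 ± 0.25 (SE, edgeR adjusted p = 3.99e-07) in WDM cells.

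The change of enrichment with arsenite was tested as the difference between both granule to cytosol ratios. In WT cells the enrichment of 41 members rose and that of 18 fell, against 12.0% and 19.4% of all genes, with a median change of 0.21 in members and -0.20 in all genes. In WDM cells it rose for 26 and fell for 14, against 7.66% and 16.5%, with medians of 0.19 and -0.17. Among protein-coding genes of at least 1 CPM the shares were 16.2% and 18.8% in WT and 10.2% and 18.2% in WDM cells. The members' own shares were 25.2% that rose in WT and 16.0% in WDM cells, with falls in 11.0% and 8.59%. In WT cells most rises lay in the 54 members of highest mean level (49.6 to 564 CPM), with 27 rises and 3 falls (median 0.53). The middle 54 had 9 and 7 (0.08), and the 55 of lowest level had 5 and 8 (-0.09). In WDM cells the same sets had 11 and 6 (0.19), 11 and 5 (0.22), and 4 and 3 (0.19). The shares of all genes at these levels are not given here. The lists of both lines shared 15 members that rose (36.6% of the WT list, 57.7% of the WDM list) and 10 that fell (55.6% and 71.4%), and no member rose in one line and fell in the other.

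Those that rose in both lines included SLC2A1, SLC6A8, SLC7A1, SLC7A5, SLC7A6, SLC10A3, SLC17A5, SLC23A2, SLC26A2, SLC31A1, SLC35A2, SLC39A13, SLC39A14 and SLC46A1. They include carriers of glucose, creatine, cationic and large neutral amino acids, vitamin C, folate, copper and zinc. The 10 that fell were SLC2A13, SLC9A9, SLC10A7, SLC15A2, SLC22A15, SLC26A7, SLC36A4, SLC38A6, SLC38A9 and SLC44A5. The listing of members called in both lines was chosen after their values were seen.

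SLC39A14, a zinc and iron importer, was lower in granules without arsenite, at a log2 fold change of -1.55 ± 0.14 (SE, edgeR adjusted p = 9.37e-11) in WT cells, and under arsenite the difference was 0.08 ± 0.14 (SE, edgeR adjusted p = 0.611). WT cytosol held 372, 346 and 401 CPM and WT granules 143, 134 and 117 CPM after tetracycline. After arsenite the values were 266, 270 and 279 CPM in WT cytosol and 297, 270 and 291 CPM in WT granules. The fractions did not overlap without arsenite and overlapped with it, and the enrichment rose by 1.63 ± 0.20 (SE, edgeR adjusted p = 3.65e-06) in WT and by 1.19 ± 0.20 (SE, edgeR adjusted p = 0.000176) in WDM cells. SLC17A5, the lysosomal sialic acid exporter, went from 29.6, 29.5 and 23.7 CPM to 65.7, 52.2 and 52.9 CPM in WT granules. Its cytosol libraries held 72.4, 82.3 and 78.4 CPM before and 57.1, 55.8 and 56.6 CPM after arsenite. The enrichment of SLC17A5 rose by 1.56 ± 0.20 (SE, edgeR adjusted p = 4.51e-06) in WT and by 0.76 ± 0.19 (SE, edgeR adjusted p = 0.00496) in WDM cells.

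SLC46A1, the proton-coupled folate transporter, changed sides. In WT cells it held 38.7, 33.6 and 42.8 CPM in cytosol and 24.9, 28.7 and 24.3 CPM in granules after tetracycline, and 32.6, 27.8 and 34.2 CPM and 44.2, 49.1 and 61.3 CPM after arsenite. The fractions did not overlap in either state. The enrichment rose by 1.31 ± 0.20 (SE, edgeR adjusted p = 3.58e-05) in WT and by 1.28 ± 0.20 (SE, edgeR adjusted p = 0.000103) in WDM cells. SLC7A5, the large neutral amino acid transporter LAT1, held 68.2, 53 and 46.9 CPM in WT granules after tetracycline and 81.7, 101 and 119 CPM after arsenite, and its cytosol libraries held 73.3, 49.1 and 50.1 CPM and 53.7, 48.7 and 53.3 CPM. Its enrichment rose by 1.04 ± 0.23 (SE, edgeR adjusted p = 0.00129) and 1.19 ± 0.23 (SE, edgeR adjusted p = 0.000552). The enrichment of SLC7A1 rose by 0.93 ± 0.30 (SE, edgeR adjusted p = 0.0202) and 1.03 ± 0.30 (SE, edgeR adjusted p = 0.0145). The WT call of SLC7A1 was lost without the first WT cytosol library or the third WT granule library of the tetracycline state, and the WDM call without the first WDM library of either fraction in that state.

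**Figure D4:**
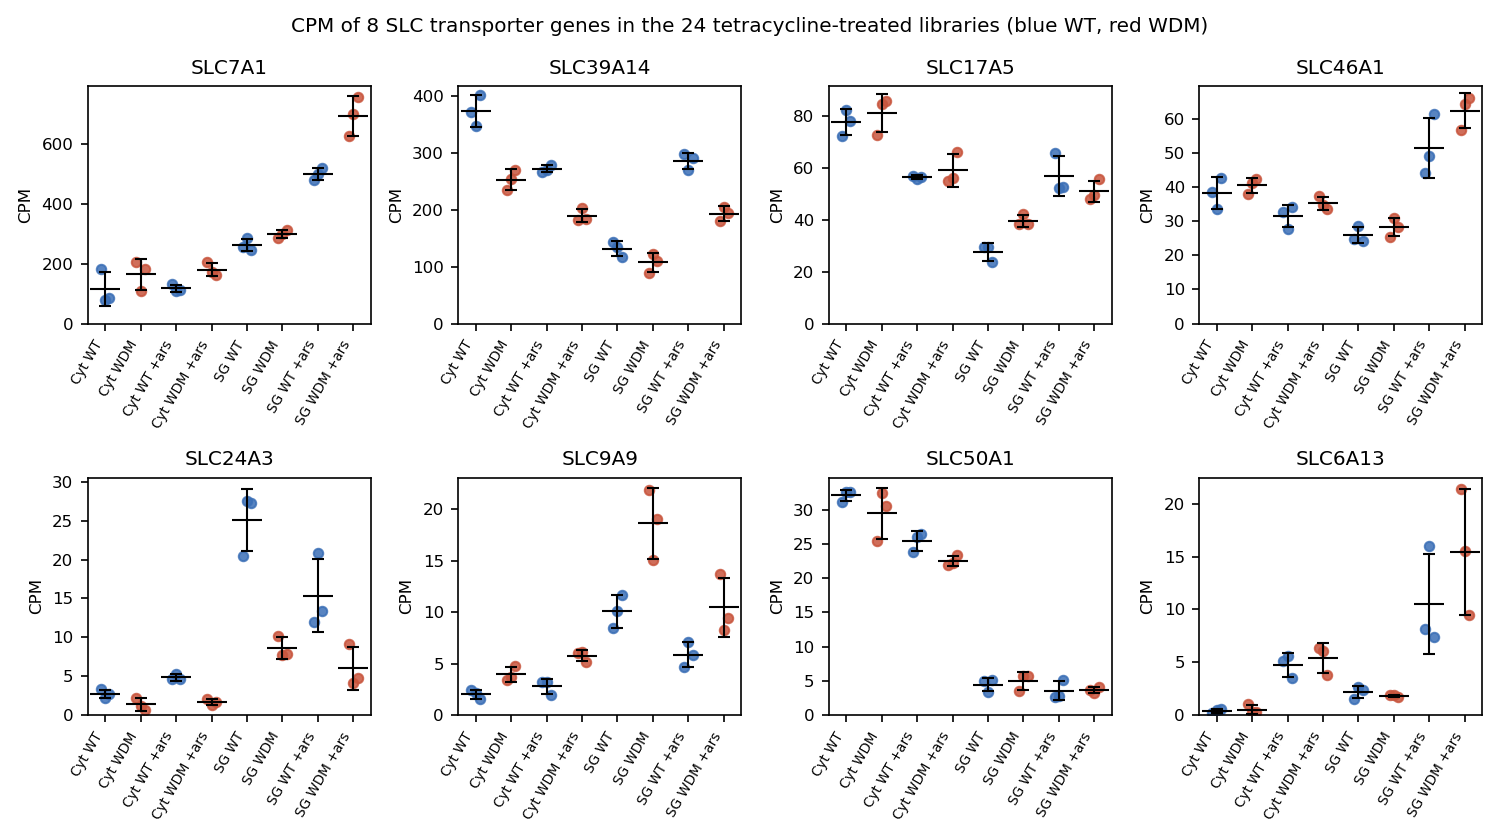
Level in CPM of 8 SLC members in each library of tetracycline-treated cells, by fraction, line and arsenite; points are libraries and bars the mean with its SD (n = 3). SLC39A14 in WT granules lies between 117 and 143 CPM without arsenite and between 270 and 297 CPM with it.

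Of the 23 metal transporters 12 were called in WT cells, each with a rise (median 0.61), and in WDM cells 4 rose and 2 fell (0.33). SLC39A9, a zinc transporter of the Golgi, went from 77.4, 74.3 and 70.5 CPM to 141, 118 and 113 CPM in WT granules without overlap, and its enrichment rose by 1.19 ± 0.17 (SE, edgeR adjusted p = 1.73e-05). In WDM cells the change of SLC39A9 was 0.40 ± 0.17 (SE, edgeR adjusted p = 0.0875), which missed the threshold. The difference between the lines was tested separately and is given with the line comparisons. The ER and Golgi list had 8 that rose and 1 that fell in WT (0.65), and in WDM cells 2 were called, both with a rise (0.05). The 38 mitochondrial carriers had 3 that rose and 8 that fell in WT (-0.14) and 4 and 9 in WDM cells (-0.25). The 26 ABC transporters had 1 and 6 (-0.29) and 1 and 4 (-0.10).

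**Figure D5:**
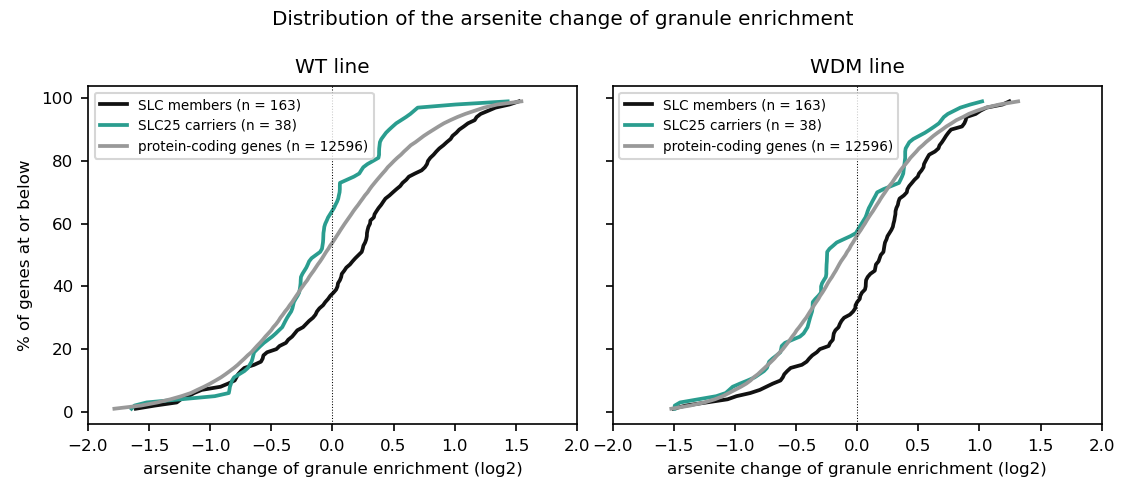
Cumulative distribution of the change of granule enrichment with arsenite (log2, x axis) against the percent of genes at or below it (y axis), for the 163 SLC members, 38 mitochondrial carriers and 12596 protein-coding genes, in each line. Around its middle the curve of the members lies to the right of the others, with a median of 0.21 in WT and 0.19 in WDM cells.

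The members that fell were fewer. The enrichment of SLC9A9 fell, with a change of -1.22 ± 0.33 (SE, edgeR adjusted p = 0.0059) in WT and -1.42 ± 0.29 (SE, edgeR adjusted p = 0.00093) in WDM cells on the log2 scale. SLC38A9, the lysosomal arginine sensor of growth signalling, held 51.1, 47.4 and 58.1 CPM in WT granules after tetracycline and 26.5, 29.7 and 26.2 CPM after arsenite. Its WDM granule values were 70.9, 51.7 and 49.7 CPM and 32.8, 27.5 and 24.8 CPM. All arsenite libraries were below all tetracycline libraries in both lines, and the change of enrichment was -0.75 ± 0.18 (SE, edgeR adjusted p = 0.00195) in WT and -0.95 ± 0.18 (SE, edgeR adjusted p = 0.000388) in WDM cells.

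Within the granule fraction, arsenite raised more members than it lowered. In WT granules 39 rose and 10 fell, against 16.5% and 14.1% of 18366 genes, with a median of 0.13 in members and -0.03 in all genes. In WDM granules 37 rose and 16 fell, against 18.7% and 17.7%, with medians of 0.09 and 0.01. Of protein-coding genes 20.4% rose and 14.8% fell in WT and 20.1% and 20.9% in WDM granules. The amino acid transporters had 10 that rose and 3 that fell in WT and 14 and 3 in WDM granules. Both lines shared 16 that rose (41.0% and 43.2% of their lists) and 6 that fell (60.0% and 37.5%). The count of 49 called in WT fell to 29 without the third WT tetracycline granule library. Mitochondrial RNA moved with the treatment: 5 such RNAs summed to 2210 ± 885 CPM (SD, n = 3) in WT tetracycline granules and 689 ± 370 CPM in WT arsenite granules, and to 1900 ± 913 CPM and 995 ± 278 CPM in WDM granules. Its part in these differences was not tested, nor was its part in the change of enrichment.

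Some members entered the list only through their arsenite libraries. The means of SLC6A13, SLC45A2 and SLC2A9 over the 18 libraries without arsenite were 0.921, 0.803 and 0.554 CPM, under the minimum of 1 CPM, so the selection itself favoured a rise with arsenite in them. They are counted above among the members that rose in WT and in WDM granules, and the values of SLC6A13 and SLC2A9 are given as a description with no test. SLC6A13, the GABA and taurine transporter GAT2, held 1.52, 2.65 and 2.38 CPM in WT granules after tetracycline and 8.11, 16 and 7.42 CPM after arsenite. WDM granules held 1.88, 1.91 and 1.71 CPM of it and 21.4, 15.5 and 9.45 CPM. SLC2A9, a urate transporter, held 1.69, 1.12 and 1.29 CPM and 5.64, 7 and 2.41 CPM in WDM granules. For neither gene did these groups overlap. SLC26A2, a sulfate transporter, held 78.6, 60.6 and 45.6 CPM and 172, 117 and 115 CPM in WT granules, where it rose by 1.17 ± 0.20 (SE, edgeR adjusted p = 0.00014). SLC9A9 was among those that fell, with a change of -0.79 ± 0.21 (SE, edgeR adjusted p = 0.00556) in WT and -0.90 ± 0.20 (SE, edgeR adjusted p = 0.000888) in WDM granules.

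In cytosol, arsenite lowered more members than it raised. In WT cytosol 10 rose and 51 fell, against 13.7% and 15.3% of 16670 genes, with a median of -0.20 in members and -0.02 in all genes. In WDM cytosol 12 rose and 49 fell, against 14.1% and 14.8%, with medians of -0.17 and 0.00. Of protein-coding genes 11.8% rose and 19.2% fell in WT and 12.5% and 18.1% in WDM cytosol. Scaled by library size alone, 15 rose and 28 fell in WT cytosol while the median of all genes was 0.11, and 16 rose and 33 fell in WDM cytosol with 0.08, so the split depends on the scaling. Both lines shared 37 that fell (72.5% and 75.5% of their lists) and 8 that rose (80.0% and 66.7%). Of the metal transporters 14 were called in WT and 12 in WDM cytosol, and of the ER and Golgi list 11 and 9, each of them lower. The summed nuclear-retained RNA was 307 CPM (202 to 508) after tetracycline and 555 CPM (534 to 587) after arsenite in WT cytosol, without overlap. In WDM cytosol it was 511 CPM (329 to 649) and 694 CPM (557 to 860), with overlap, and its part in these differences was not tested. SLC39A6 went from 151, 157 and 169 CPM to 111, 112 and 116 CPM in WT cytosol, -0.63 ± 0.09 (SE, edgeR adjusted p = 0.000106) on the log2 scale.

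Of the 10 members that rose in WT cytosol, 7 were among the 55 of lowest mean level (1.05 to 10.4 CPM) and 3 among the middle 54 (10.6 to 48.8 CPM). SLC6A13, SLC45A2 and SLC2A9, which reached the minimum only through their arsenite libraries, were among the 10, and among the 12 in WDM cytosol. SLC6A13 held 1, 0.277 and 0.265 CPM in WDM cytosol after tetracycline and 6.37, 6.03 and 3.76 CPM after arsenite. In WT cytosol the values were 0.222, 0.484 and 0.567 CPM and 5.12, 5.63 and 3.51 CPM. These values too are a description with no test. No arsenite library overlapped a tetracycline library in either line, although the tetracycline values rest on 3 to 8 counts per library.

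The lines differed in fewer members than the fractions did. In untreated cytosol 14 members were higher and 10 lower in WDM than in WT cells, against 9.78% of all genes in either direction. After tetracycline 18 were higher and 13 lower (12.6%), and after arsenite 21 and 7 (10.4%). These untreated and tetracycline counts, and the granule counts given next, depended strongly on which libraries were in the fit, as given below. In granules 11 were higher and 7 lower after tetracycline (5.55%), and 11 and 11 after arsenite (7.95%). Over the 15 libraries of the WT line SLC9A3, SLC16A5 and SLC16A4 averaged 0.729, 0.659 and 0.968 CPM, under the minimum of 1 CPM. In the WDM line 0 members were under it, so the selection itself favoured a higher level in WDM cells in these genes. SLC9A3 is counted as higher in each of these comparisons and SLC16A5 in arsenite granules. In untreated cytosol the summed nuclear-retained RNA was 362 CPM (330 to 402) in WT and 647 CPM (620 to 680) in WDM cells, without overlap. Mitochondrial RNA there was 910 to 1050 CPM in WT and 1090 to 1300 CPM in WDM cells, and the part of either in the line differences was not tested. Of 7 amino acid transporters of the ATF4 response, 5, 4 and 5 were called in the 3 cytosol states, each higher in WDM cells, with medians of 0.39, 0.47 and 0.56. In granules 3 were called in each state, all higher in WDM cells (0.49 and 0.39). These 7 were listed with such results of these data already known.

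SLC2A3, the neuronal-type glucose transporter GLUT3, held 13.1, 10.9 and 9.65 CPM in untreated WT cytosol and 30.6, 31.5 and 31.1 CPM in untreated WDM cytosol. All WDM libraries were above all WT libraries, a log2 difference of 1.43 ± 0.13 (SE, edgeR adjusted p = 1.44e-07). SLC1A2, a glial-type glutamate transporter, went the other way, at 10.2, 6.84 and 7.82 CPM in WT and 3, 1.91 and 2.27 CPM in WDM cytosol, -1.81 ± 0.23 (SE, edgeR adjusted p = 1.73e-05). In arsenite granules SLC1A2 differed by -1.90 ± 0.21 (SE, edgeR adjusted p = 1.78e-07). SLC6A9, the glycine transporter GLYT1, held 10.8, 10.5 and 10.7 CPM in untreated WT and 18.6, 19.1 and 17.6 CPM in untreated WDM cytosol, 0.75 ± 0.17 (SE, edgeR adjusted p = 0.00752). In tetracycline granules SLC24A3 was lower in WDM than in WT cells, at a log2 difference of -1.57 ± 0.23 (SE, edgeR adjusted p = 4.03e-05).

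SLC43A1, a transporter of large neutral amino acids, was higher in WDM cells, with 23.8, 21.7 and 21.9 CPM in untreated WT and 39.7, 42.4 and 39.7 CPM in untreated WDM cytosol. Its log2 difference was 0.82 ± 0.11 (SE, edgeR adjusted p = 1.73e-05) in untreated cytosol and 1.08 ± 0.20 (SE, edgeR adjusted p = 0.000569) in tetracycline granules. SLC39A14 was lower in WDM cells, with 308, 300 and 302 CPM in untreated WT and 232, 222 and 218 CPM in untreated WDM cytosol. The groups did not overlap, and the difference was -0.47 ± 0.08 (SE, edgeR adjusted p = 0.000393). SLC39A14 lies on chromosome 8, as does SLC7A2, which was also lower in untreated WDM cytosol, at -0.41 ± 0.09 (SE, edgeR adjusted p = 0.00324). No other member on chromosome 8 was called in that comparison. The part of chromosome position in these differences was not tested. SLC9A9 was higher in WDM cells in arsenite cytosol, by 1.05 ± 0.20 (SE, edgeR adjusted p = 0.000955). Each line differs from the other in its transgene and in its history of selection, and these cannot be told apart.

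In the fits reported here, no member was called for a difference between the lines in how arsenite or the fraction acted on it. With no low-count filter, 1 member was called for the line by arsenite interaction in granules. For the line difference in granule enrichment edgeR called 0 members after tetracycline and 0 after arsenite (0.00551% of all genes in each), with 12 and 13 at an unadjusted p under 0.05 and 0 by DESeq2 in both. For the arsenite effect in granules it called 0 (0.0%), with 31 at an unadjusted p under 0.05 and 0 by DESeq2. For the arsenite effect in cytosol it called 0 (0.0%), with 5 and 0, and for the tetracycline effect in cytosol 0 (0.018%), with 3 and 0. The line difference in granule enrichment of SLC17A5 after tetracycline was 0.51 ± 0.20 (SE, edgeR adjusted p = 0.833), and that of SLC39A9 after arsenite was -0.39 ± 0.17 (SE, edgeR adjusted p = 0.741).

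Few members differed in cytosol between tetracycline without arsenite and no treatment. Tetracycline also induces the transgene and every group holds one, so the drug and the induction cannot be told apart. In WT cells 9 rose and 4 fell, against 5.31% of all genes in either direction, and in WDM cells 5 rose and 6 fell, against 6.3%. The WDM count lies near the share of all genes, and both counts depended strongly on which libraries were in the fit. Leaving out each library gave 4 to 17 calls in WT and 3 to 7 in WDM cytosol. Mitochondrial RNA moved with tetracycline, from 910 to 1050 CPM down to 532 to 891 CPM in WT cytosol and from 1090 to 1300 CPM down to 701 to 814 CPM in WDM cytosol. The groups did not overlap in either line, and its part in these differences was not tested. SLC2A1 rose in both lines. It held 86.7, 92.4 and 97.3 CPM in untreated and 151, 119 and 147 CPM in tetracycline-treated WT cytosol, 0.64 ± 0.10 (SE, edgeR adjusted p = 0.00325) on the log2 scale. In WDM cytosol it held 88.6, 86.9 and 86.2 CPM and 119, 110 and 119 CPM, 0.43 ± 0.10 (SE, edgeR adjusted p = 0.0161). The groups did not overlap in either line. SLC12A4, a potassium and chloride cotransporter, fell in both lines, with a change of -0.55 ± 0.13 (SE, edgeR adjusted p = 0.018) in WT and -0.44 ± 0.13 (SE, edgeR adjusted p = 0.0418) in WDM cytosol. SLC4A7, a sodium bicarbonate cotransporter, also fell in both, with -0.66 ± 0.12 (SE, edgeR adjusted p = 0.00421) and -0.49 ± 0.11 (SE, edgeR adjusted p = 0.0127).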

How the data were processed

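Total RNA of 18 cytosol and 12 granule libraries was sequenced with a stranded kit that removes ribosomal RNA, per the labels' protocols. The authors deposited 1 table of raw counts per gene. Trimmomatic, STAR, Picard, featureCounts and GRCh38 are named in the submitters' processing notes, with no version, and whether counting used strand or kept reads shared by overlapping genes is not given in the sources used here. The deposited counts were used unchanged. CPM was computed from the library total.

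Groups were compared with edgeR 4.0.16 (quasi-likelihood test, robust, filterByExpr with a minimum count of 10, TMM factors, R 4.3.3) in 3 fits: 18 cytosol libraries (16670 genes), 12 granule libraries (18366 genes) and the 24 libraries of tetracycline-treated cells (18141 genes). The Benjamini-Hochberg adjustment covered every gene of a fit, and an adjusted p under 0.05 was called. The script was tested on simulated data. Members and lists were chosen with earlier results of these data known. Named members were those called with the largest log2 fold change per comparison (up to 6 each way between fractions, up to 4 elsewhere) where libraries did not overlap and the group with more reached 5 CPM, the 3 smallest p-values per interaction, the 8 most abundant, and a list of well-known transporters. Lists are described by counts and medians only. Alternatives were other scaling factors, no low-count filter, a replicate block, only the groups compared, DESeq2 1.42.0 and leaving out each library. Gene models were those of GENCODE 44. Some members that the naming rule takes are not reported here.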

Additional observations from a re-analysis of the deposited data

Results flagged for a closer look

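The granule enrichment of 59 members in WT and 40 members in WDM cells differed between the arsenite and the tetracycline state by edgeR's test of the difference itself. The members that the naming rule took from these tests were, in WT cells, SLC39A14 (a log2 change of enrichment of 1.63), SLC17A5 (1.56) and SLC39A9 (1.19). In WDM cells they were SLC46A1 (1.28), SLC39A14 (1.19) and SLC38A9 (-0.95).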

How the results depend on the processing

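Of 305 alternative counts over 22 comparisons, 274 stayed within 1.5 times the count reported, and no named call reversed. Of 256 calls of named members, 189 held under every alternative run. With only the groups compared in the fit, the arsenite effect in WDM cytosol had 35 calls, the tetracycline effect in WT cytosol 4, and the line difference 69 in untreated and 12 in tetracycline cytosol. The shares of all genes called under the alternatives of this section are not given here. These counts therefore describe the processing and are no result about the members. The line by arsenite interaction in granules had 1 call with no low-count filter. Leaving out each library gave 24 to 44 calls for the arsenite change of enrichment in WDM cells and 29 to 47 for the arsenite effect in WT granules. It gave 10 to 27 and 9 to 26 for the line difference in tetracycline and arsenite granules, 4 to 17 and 3 to 7 for tetracycline in WT and WDM cytosol, and 12 to 17 and 18 to 45 for the line difference in untreated and tetracycline cytosol. The highest of these, 45, came without the first WT tetracycline cytosol library and the lowest enrichment count, 24, without the third WDM arsenite granule library. The cause of these shifts was not tested. Same-numbered libraries deviated together, at over 0.1 in every pair, in 2 of 15 comparisons (correlations of -0.33 to 0.73), and the replicate block gave 43 rises and 20 falls for the change of enrichment in WT cells and moved no count by over 1.5 times. Depth limits the members that rest on few counts, such as SLC6A13 in cytosol without arsenite, and a count that the table lists near 0, as for TIA1, does not show absence.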

Other observations

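SLC7A11, the cystine transporter, and SLC30A1, a zinc exporter, were left out of the members by the rule. SLC7A11 averaged 96.8 ± 9.40 CPM (SD, n = 3) in untreated WT cytosol and 131 ± 4.63 CPM in untreated WDM cytosol. In tetracycline granules it averaged 124 ± 37.5 CPM in WT and 273 ± 15.9 CPM in WDM cells. SLC30A1 averaged 74.6 ± 13.2 CPM in WT cytosol after tetracycline and 94.0 ± 2.60 CPM after arsenite.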
